A study of Mus musculus with 6 samples.

Results

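The ABC transporter genes of NMuMG cells were taken from a count table of 18512 entries as all entries whose symbol was Abc followed by a letter from a to g and a number, with a mean raw count of 20 or more over 6 libraries. Of 48 genes with such a symbol, 37 reached this minimum, and these 37 are counted here. The other 11 lay under it. Just inside it were Abcg8 with a mean of 21.3 counts and Abca6 with 23.7, and just outside it were Abcb4 with 18.0 and Abcg4 with 15.0.

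ABC proteins are built around a domain that binds and splits ATP, and most of them use this energy to carry a substrate across a membrane. Members of subfamilies A and G mainly move lipids and sterols, several members of B, C and G pump drugs and conjugated anions out of the cell, members of D carry fatty acids into peroxisomes, and the E and F proteins have no membrane part and act on ribosomes. In epithelia the pumps are sorted to the apical or the basolateral side, and in the lactating mammary gland Abcg2 secretes drugs and vitamins into milk.

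NMuMG is an epithelial line from normal mouse mammary gland. Cells were given the vehicle DMSO, TGF-β at 5 ng/ml, which drives these cells through an epithelial to mesenchymal transition, or TGF-β at 5 ng/ml with 2APB at 50 uM, a blocker of store-operated calcium entry. The sequenced cells were treated for 24 h. The study's methods place 2APB 24 h ahead of TGF-β, while some of its figure legends place TGF-β within a 24 h treatment with 2APB. The timing of 2APB in the sequenced cells is therefore not certain. The 2 replicates of each group are described as biological. No library received 2APB without TGF-β, so every value of 2APB below is its difference in cells that also received TGF-β. All p-values measure the spread between these replicates of 1 cell line, and in these bulk libraries fewer cells of a kind and less RNA per cell cannot be told apart.

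The libraries held from 71840570 to 79473182 counts. The 37 genes took 0.241% and 0.246% of them in the DMSO libraries, 0.201% and 0.202% after TGF-β, and 0.172% and 0.179% after TGF-β+2APB. The keratin genes Krt8 and Krt18 were the most abundant of the epithelial markers in every library, while Epcam had 50.6 to 163 normalized counts and Cldn7 fewer than 20. Of the 5 epithelial markers tested, 2 were called higher with TGF-β, Krt8 and Krt18. The other 3, Cdh1, Krt19 and Epcam, were called lower. All 8 hepatocyte markers looked for were also present in the DMSO libraries, and 7 of the 8, all but Apob, were called lower with TGF-β and in TGF-β+2APB against DMSO, with medians of the 8 at -5.28 and -9.55 on the log2 scale. Alb went from 31570 and 28821 normalized counts in the DMSO libraries to 93.5 and 41.5 in the TGF-β libraries. The TGF-β+2APB libraries held 39.6 and 19.7 of it, and Fga was at 0 in both of them. The sum of the 8, most of it Apob, was 505072 and 491500, then 219034 and 344041, then 540598 and 604166. The part of these transcripts in the changes of ABC genes known from liver, such as Abcc2, Abcc6 and Abcg8, was not tested. Among 4 macrophage markers of 5 in the table the summed normalized count was 434 to 4220 in 5 libraries and 30998 in TGF-β+2APB replicate 2, so each library is given separately below. Counts in the text are raw, with replicate 1 before replicate 2, and fold changes were fitted on normalized counts with edgeR's quasi-likelihood test, in which an FDR of 0.05 or less was called.

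More of the family was called lower than higher after TGF-β. Against DMSO, 26 of the 37 genes (70.3%) were called, 6 higher and 20 lower, while 41.5% of all 13353 genes tested were called, 21.8% higher and 19.7% lower. The median log2 fold change of the 37 genes was -0.74 and that of all genes -0.01. Adding 2APB to TGF-β gave 10 called genes (27%), 1 higher and 9 lower, where 17.5% of all genes were called, 6.58% higher and 10.9% lower. The median was -0.24 beside 0.00 for all genes. Between TGF-β+2APB and DMSO, 26 genes were called, 4 higher and 22 lower, where 52.8% of all genes were called, 25.6% higher and 27.2% lower. The median was -0.97 beside 0.00. The last comparison uses the same DMSO libraries as the first and the same TGF-β+2APB libraries as the second, so it is not a further replicate of either. Without TGF-β+2APB replicate 2 the 3 counts were 24, 9 and 24. Without TGF-β replicate 1 or replicate 2 the second count was 17, and without DMSO replicate 1 or replicate 2 it was 6, with 33 of the genes tested. The first count without those DMSO libraries was 17 and 16.

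Of the 37 genes, 29 had a mean of at least 20 counts in each group and Abca4 in 2 groups. The remaining 7, Abca6, Abca8a, Abca9, Abcb9, Abcc6, Abcc8 and Abcg8, reached the minimum through the DMSO libraries alone and had to be higher there, so the counts and medians above that include them lean toward falls from DMSO. Leaving them aside, TGF-β against DMSO gave 6 genes higher and 15 lower of 30 with a median of -0.34. TGF-β+2APB against TGF-β gave 8 lower and none higher by edgeR. In that comparison DESeq2 also called Abcg1 and Abcb1a higher and Abca2 and Abcd3 lower. TGF-β+2APB against DMSO gave 4 higher and 15 lower. The medians of the latter comparisons over these 30 genes were -0.20 and -0.37. By the pair of steps, Abca7 and Abcg2 were called higher with TGF-β and then lower with 2APB, Abcg8 was called lower and then higher, and Abca8a, Abca8b, Abcc3, Abcc4, Abcc5 and Abcc10 were called lower at both steps. A further 13 genes were called lower with TGF-β and 4 higher, with no call for 2APB, 1 gene (Abcb1b) was called for 2APB alone, and 10 were called at neither step.

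**Figure D1:**
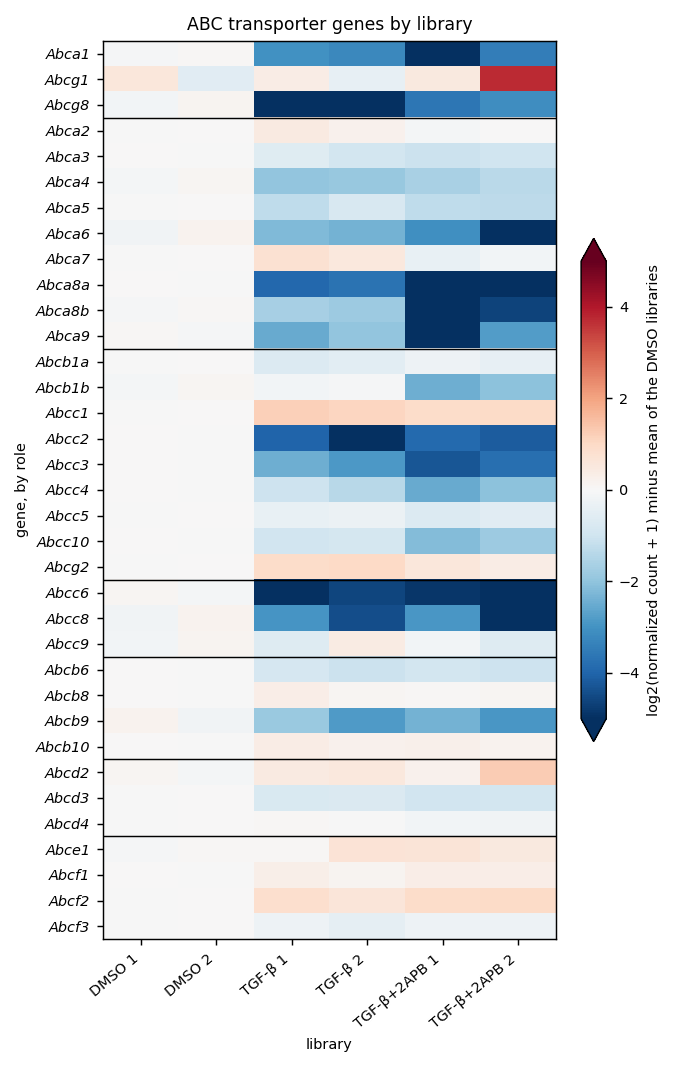
The 35 ABC transporter genes described here (rows, grouped by role) in the 6 libraries (columns), coloured by log2(normalized count + 1) minus the mean of the DMSO libraries, with colours saturating at -5 and 5. Blue fills most of the TGF-β and TGF-β+2APB columns for Abca8a, Abca8b, Abcc2, Abcc3 and Abcc6, while Abcg1 is deep red in TGF-β+2APB replicate 2 only, with 310 raw counts beside 32 in replicate 1.

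**Figure D2:**
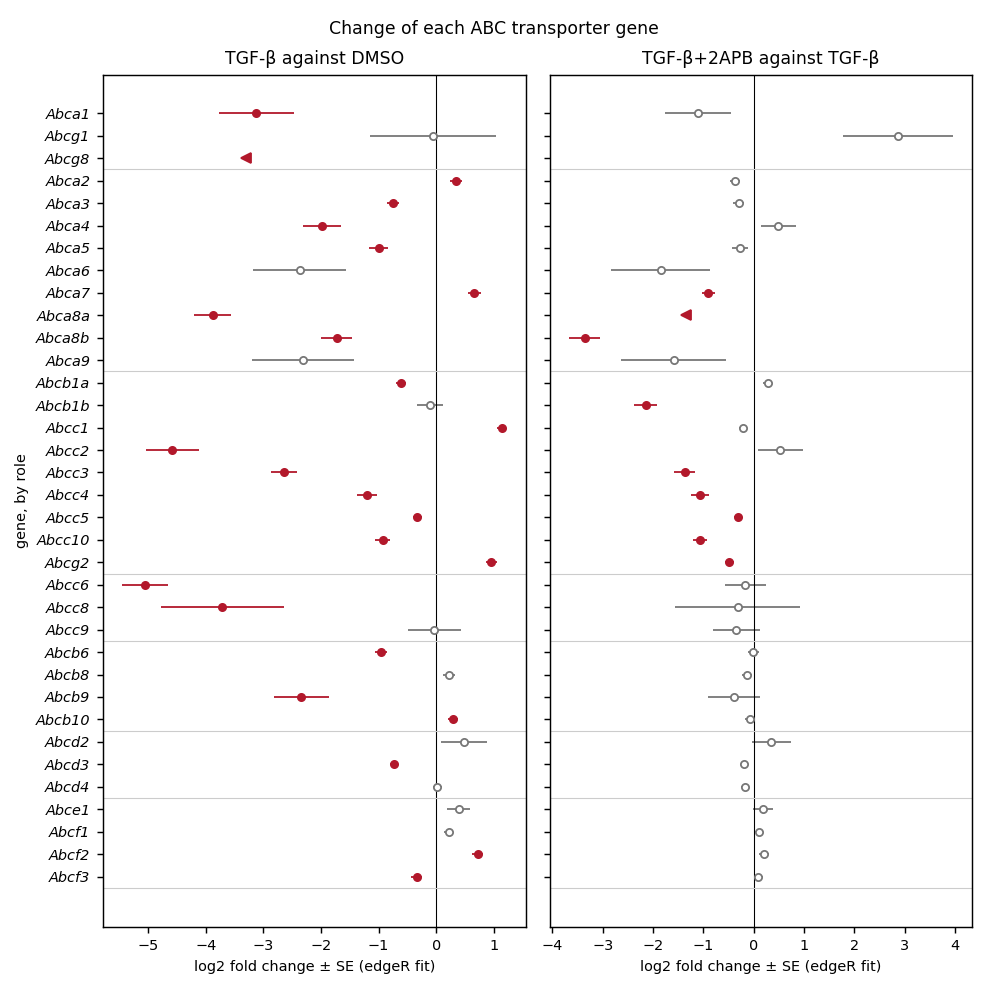
Fitted log2 fold change of each of 35 ABC transporter genes (points, with bars of 1 SE, edgeR, 2 libraries per group) for TGF-β against DMSO at left and TGF-β+2APB against TGF-β at right, filled red where called. Triangles stand at the lower bound of the size of the change for Abcg8 at left (at least 9.87-fold) and Abca8a at right (at least 2.55-fold). For both, 1 group was at 0 counts. Abcg8 has no point at right because its TGF-β libraries were at 0 and its TGF-β+2APB libraries at or under the floor of 6 counts. Points are drawn for Abcc8 in both panels and for Abca6 and Abca9 at right. There at least 1 group mean lies under this floor, so these points give no fold.

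The promoter letters of genes whose changes stand out are given first. The tables used here held a RefSeq promoter for 26 of the 37 genes, and the 250 bases upstream of the start were searched on both strands for CACCTG (the E-box form bound by Snai1 and Zeb proteins), GATAA (the core of GATA factor sites), CCAAT (the NF-Y box), TGANTCA (an AP-1 site form) and a strict form of the DR4 element of liver X receptors. CACCTG stood in 11 of the 26 and in 17.2% of all 32851 promoters, GATAA in 6 and 22.6%, CCAAT in 7 and 33.8%, TGANTCA in 0 and 6.75%, and the DR4 form in 1 and 0.0457%. The ABC figures count genes with a match in any of their promoters, while the shares are over single promoters. These units are unlike, so the figures show no excess or lack of a motif. A match describes letters and shows no binding. The printed matches do not overlap each other. The sequences below are from RefSeq on GRCm38.p6, written 5′ to 3′ on the strand of the named gene, with matches in capitals.

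The interval of 109 bases between the RefSeq starts of Abcg5 and Abcg8, chr17:84683012-84683120 on the plus strand, is shown because the partner genes face away from each other across it and were at 0 together in both TGF-β libraries. It holds GATAA on the minus strand at 2 places.
Abcg8: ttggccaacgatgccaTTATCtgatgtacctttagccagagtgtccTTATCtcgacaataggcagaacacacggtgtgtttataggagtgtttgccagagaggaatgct
Upstream of Abca1, chr4:53159896-53160145 on the minus strand, lies the DR4 form on the strand opposite to the gene.
Abca1: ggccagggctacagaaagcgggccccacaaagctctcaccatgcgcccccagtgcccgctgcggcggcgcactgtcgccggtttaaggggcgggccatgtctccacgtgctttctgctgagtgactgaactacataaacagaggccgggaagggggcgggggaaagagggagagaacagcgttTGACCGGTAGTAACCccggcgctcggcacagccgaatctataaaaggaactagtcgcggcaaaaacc
Upstream of Abcb1b, chr5:8797897-8798146 on the plus strand, CCAAT occurs once on each strand. It is shown because Abcb1b was called for 2APB alone.
Abcb1b: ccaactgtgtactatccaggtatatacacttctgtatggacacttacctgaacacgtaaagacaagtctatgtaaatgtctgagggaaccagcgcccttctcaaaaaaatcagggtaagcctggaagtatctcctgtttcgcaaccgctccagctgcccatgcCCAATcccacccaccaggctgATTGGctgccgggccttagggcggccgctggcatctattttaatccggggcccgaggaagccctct
Upstream of Abca8b, chr11:109995846-109996095 on the minus strand, GATAA and the reverse complement of CACCTG occur, and upstream of its neighbour Abca8a, chr11:110095938-110096187 on the same strand, none of the 5 motifs does. These neighbours were called lower at both steps.
Abca8b: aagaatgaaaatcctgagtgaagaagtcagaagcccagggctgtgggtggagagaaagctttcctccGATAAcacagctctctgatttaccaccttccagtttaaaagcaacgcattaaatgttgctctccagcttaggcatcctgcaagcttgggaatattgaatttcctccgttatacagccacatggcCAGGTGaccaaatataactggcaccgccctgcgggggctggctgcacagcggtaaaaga
Abca8a: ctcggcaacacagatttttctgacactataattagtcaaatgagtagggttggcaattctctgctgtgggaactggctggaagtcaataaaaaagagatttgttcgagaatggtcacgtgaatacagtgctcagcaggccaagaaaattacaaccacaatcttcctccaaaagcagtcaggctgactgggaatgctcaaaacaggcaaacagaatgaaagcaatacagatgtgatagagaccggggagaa

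Among the sterol exporters, Abca1 and Abcg8 fell with TGF-β, and Abcg1 separated the TGF-β+2APB replicates. Abca1 (chromosome 4, 53030787 to 53159895), which hands cholesterol and phospholipid to apolipoprotein A-I, had 1804 and 1822 counts in the DMSO libraries, 230 and 190 in the TGF-β libraries, and 30 and 168 in the TGF-β+2APB libraries. No library with TGF-β came near the DMSO libraries. It fell by 3.12 on the log2 scale with TGF-β (SE 0.65, edgeR FDR 0.0131), and the change between TGF-β+2APB and DMSO was -4.22 (SE 0.70, FDR 0.004), or -3.47 without TGF-β+2APB replicate 1 and -5.92 without replicate 2. The first call was lost without DMSO replicate 1 (-3.16) or DMSO replicate 2 (-3.07). From TGF-β to TGF-β+2APB the log2 fold change was -1.11 (SE 0.66, FDR 0.297), not called, and it was -2.82 and called without TGF-β+2APB replicate 2 and -0.38 without replicate 1.

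Abcg1 (chromosome 17, 31057675 to 31117988), which passes cholesterol on to high-density lipoprotein, had 34 and 14 counts in the DMSO libraries, 30 and 16 in the TGF-β libraries, and 32 and 310 in the TGF-β+2APB libraries. The high count belongs to TGF-β+2APB replicate 2 alone, and the remaining libraries of all groups hold 14 to 34. The log2 fold change for 2APB was 2.87 (SE 1.09, FDR 0.131, between 0.025 and 0.264 over the alternatives tried), not called by edgeR and called by DESeq2. Without TGF-β+2APB replicate 2 it was 0.45, and without replicate 1 it was 3.69 and called.

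Among ABC genes with 20 or more normalized counts in at least 1 replicate of a group, Abcg1 and Abca1 had replicates at least 4-fold apart, 9.65-fold and 5.58-fold in TGF-β+2APB, both higher in replicate 2. By the same rule 2.16% of all 13353 genes were so far apart in this group, 286 of 288 of them higher in replicate 2, compared with 0.33% in DMSO and 0.532% with TGF-β. The macrophage markers Ptprc, Cd68, Csf1r and Lyz2, none of which was at 0 in any library, summed to 4220 and 1597 normalized counts in the DMSO libraries, 1124 and 434 after TGF-β, and 479 and 30998 after TGF-β+2APB. Lyz2 alone gave 28668 of the last sum. In each group the library with the larger sum also had more Abcg1 counts, which were only 14 to 34 in the DMSO and TGF-β libraries. For Abca1 the same held with TGF-β and with TGF-β+2APB. It did not hold in DMSO, where Abca1 had 1804 counts in replicate 1 and 1822 in replicate 2. The part of these transcripts in the Abcg1 and Abca1 values was not tested.

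Abcg8 pairs with Abcg5 in the pump that exports sterols into bile and gut lumen. Abcg8 had 54 and 64 counts in the DMSO libraries, 0 and 0 in the TGF-β libraries, and 4 and 6 in the TGF-β+2APB libraries. Abcg5, under the minimum with a mean of 9.3, had 30 and 22 counts, 0 and 0, and 4 and 0. Both transcripts were thus found in DMSO and near or at 0 elsewhere. Abcg8 was at least 9.87-fold lower with TGF-β than with DMSO (edgeR FDR 0.00135), taking 6 counts per library as the floor that a count of 0 allows. Its call as higher with 2APB (FDR 0.0288, between 0.0214 and 0.143 over the alternatives) compares values at or under that floor, so no fold is given. The call was lost without TGF-β+2APB replicate 1 (FDR 0.117) or replicate 2 (FDR 0.143) and by DESeq2 with its fold change prior (FDR 0.143). Against DMSO, Abcg8 was also called lower in TGF-β+2APB (FDR 0.003), where its counts lie at or under the floor and no fold is given. Abcg8 is one of the genes that passed through the DMSO libraries alone. The gene models of the partners overlap by 82 exonic bases on opposite strands, and the strand setting of the counting is not given in the sources used here.

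**Figure D3:**
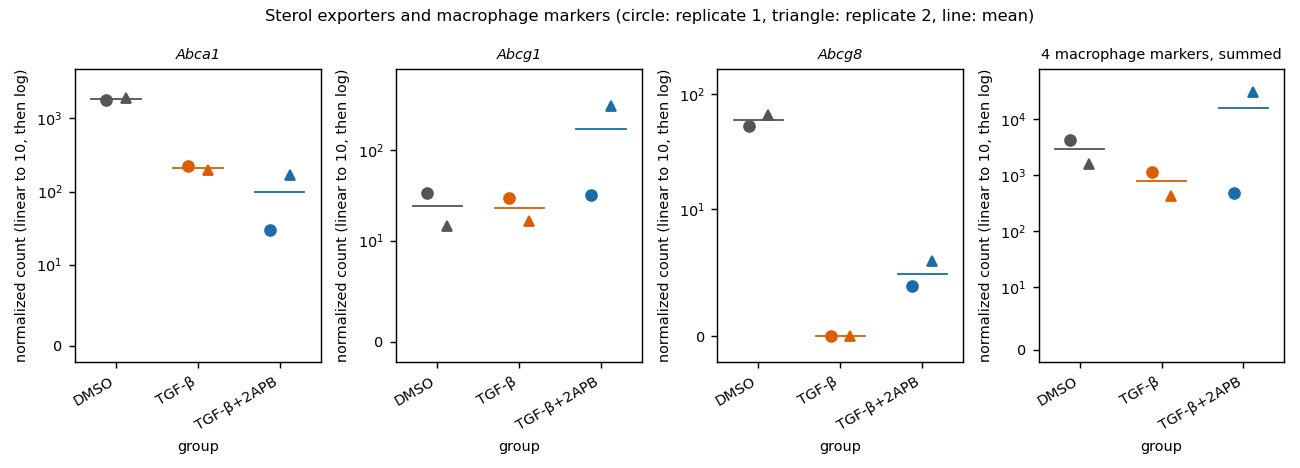
Normalized counts (linear to 10, then logarithmic) of Abca1, Abcg1 and Abcg8 and the sum of 4 macrophage markers in each library, with circles for replicate 1, triangles for replicate 2 and a line at the mean of each group. The TGF-β+2APB replicates lie apart for Abca1, for Abcg1 and for the markers, whose sum is 479 in replicate 1 and 30998 in replicate 2.

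The other A-subfamily genes moved in both directions with TGF-β. Of 9 genes, 7 were called with TGF-β, 2 higher and 5 lower, where 41.5% of all genes were called, and 3 with 2APB, all lower, where 17.5% were. The 9 include Abca6, Abca8a and Abca9, which passed through the DMSO libraries alone. The 4 related genes Abca8b, Abca8a, Abca9 and Abca6 lie side by side on the minus strand of chromosome 11, from 109932190 to 110251776, followed by Abca5 up to 110337716. These 4 had fewer counts in every TGF-β+2APB library than in any DMSO or TGF-β library.

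Abca8b, a lipid and organic anion transporter, had 1612 and 1674 counts in the DMSO libraries, 538 and 458 in the TGF-β libraries, and 32 and 66 in the TGF-β+2APB libraries. The 3 groups do not overlap and descend in that order. It fell by 1.73 on the log2 scale with TGF-β (SE 0.27, edgeR FDR 0.0044) and by a further 3.36 with 2APB (SE 0.31, FDR 0.00417). From DMSO to TGF-β+2APB it fell by 5.09 (SE 0.32, FDR 0.000126). Without TGF-β+2APB replicate 2 the latter changes were -3.98 and -5.68.

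Its neighbour Abca8a had 230 and 214 counts in the DMSO libraries, 14 and 16 in the TGF-β libraries, and 0 and 0 in the TGF-β+2APB libraries. It fell by 3.88 on the log2 scale with TGF-β (SE 0.32, FDR 0.00111), was at least 2.55-fold lower again with 2APB (FDR 0.00687), and was at least 37.7-fold lower in TGF-β+2APB than in DMSO (FDR 0.000183). The gene was therefore last detected in the TGF-β libraries, at a level close to the floor. Abca8a shares 1.64% of its 50-base words with Abca8b.

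Abca9 had 64 and 56 counts in the DMSO libraries, 10 and 14 in the TGF-β libraries, and 0 and 8 in the TGF-β+2APB libraries. Abca6 had 52 and 62, 12 and 10, and 6 and 0. With TGF-β neither was called by edgeR (FDR 0.0867 for Abca9, between 0.00563 and 0.134 over the alternatives, and 0.064 for Abca6, between 0.00533 and 0.113), while DESeq2 called Abca6 lower with and without its prior. Both were called in a fit of only the 4 libraries compared, with halved counts and without either TGF-β+2APB library. In TGF-β+2APB both were called lower than in DMSO (FDR 0.0204 for Abca9 and 0.0124 for Abca6). Their TGF-β+2APB means lie under the floor of 6 counts, so no fold is given. Without TGF-β+2APB replicate 1, which leaves 8 counts in this group, the fitted log2 change of Abca9 was -2.92. Without replicate 2 for Abca9, or either replicate for Abca6, the library left was at or under the floor, and no value is given. Abca5, a lysosomal member with 5142 and 4900 counts in the DMSO libraries, 2166 and 2828 in the TGF-β libraries, and 2146 and 2046 in the TGF-β+2APB libraries, was 2.01-fold lower with TGF-β (FDR 0.00445) and had no call with 2APB (-0.28, FDR 0.261).

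Abca7 and Abca2 moved the other way with TGF-β. Abca7, which moves phospholipids and takes part in phagocytosis, had 2944 and 2840 counts in the DMSO libraries, 5106 and 4096 in the TGF-β libraries, and 2298 and 2718 in the TGF-β+2APB libraries. It was highest in the TGF-β libraries, and with 2APB it lay below the DMSO libraries. It rose by a log2 fold change of 0.66 with TGF-β (SE 0.11, FDR 0.00652) and fell by 0.90 with 2APB (SE 0.12, FDR 0.00824), so that TGF-β+2APB differed from DMSO by -0.23 (FDR 0.14), not called. The rise was not called without DMSO replicate 1 (0.65) or DMSO replicate 2 (0.67).

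Abca2, an endolysosomal lipid transporter, had 11826 and 11474 counts in the DMSO libraries, 16304 and 13254 in the TGF-β libraries, and 10996 and 12140 in the TGF-β+2APB libraries. Its rise of 0.34 with TGF-β (SE 0.10, FDR 0.0384, between 0.00553 and 0.0759 over the alternatives) was not called when a DMSO library (0.32 and 0.35) or a TGF-β+2APB library (0.36 each) was left out. Its change with 2APB was -0.37 (FDR 0.052, between 0.00557 and 0.142), not called by edgeR and called lower by DESeq2.

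Abca3, which loads phospholipid into the lamellar bodies of surfactant-making cells, had the most counts of the A-subfamily genes in the DMSO libraries, 25804 and 23966, with 16854 and 12910 in the TGF-β libraries, and 11896 and 12604 in the TGF-β+2APB libraries. It fell by 0.75 with TGF-β (SE 0.11, FDR 0.00364) and had no call with 2APB (-0.30, FDR 0.119). Of its 50-base words, 10.1% are shared with an antisense transcript. Abca4, known from the retina, had 54 and 58 counts in the DMSO libraries, 14 and 14 in the TGF-β libraries, and 18 and 22 in the TGF-β+2APB libraries, a change of -1.99 with TGF-β (SE 0.33, FDR 0.00575) that was not called without DMSO replicate 2 (-1.91). Abca12, the lipid transporter of the skin barrier, had a mean of 1.7 counts.

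The drug and organic anion pumps divided into a few that rose and a larger number that fell. Of 9 such genes, 8 were called with TGF-β, 2 higher and 6 lower, where 41.5% of all genes were called, and 6 were called with 2APB, all lower, where 17.5% were. Against DMSO all 9 were called in TGF-β+2APB, 2 higher and 7 lower, beside 52.8% of all genes. Medians of the 3 comparisons were -0.61, -0.49 and -1.99 on the log2 scale, beside -0.01, 0.00 and 0.00 for all genes tested.

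Abcc1, the pump for glutathione conjugates and leukotriene C4, had 5978 and 5912 counts in the DMSO libraries, 14236 and 12158 in the TGF-β libraries, and 11384 and 11704 in the TGF-β+2APB libraries. Every library with TGF-β lay well above the DMSO libraries. Its rise against DMSO on the log2 scale was 1.14 (SE 0.08, FDR 0.000281) with TGF-β and 0.93 (SE 0.08, FDR 0.000335) with TGF-β+2APB, and no call with 2APB (-0.21, FDR 0.119).

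Abcg2, the breast cancer resistance protein, had 1250 and 1226 counts in the DMSO libraries, 2428 and 2396 in the TGF-β libraries, and 1856 and 1628 in the TGF-β+2APB libraries. Its rise of 0.96 with TGF-β (SE 0.09, FDR 0.00091) was followed by a change of -0.49 with 2APB (SE 0.09, FDR 0.021, between 0.00068 and 0.0726 over the alternatives), which left TGF-β+2APB above DMSO by 0.46 (SE 0.09, FDR 0.00836). The fall was not called without a DMSO library (-0.49 each), without TGF-β+2APB replicate 1 (-0.62) or without replicate 2 (-0.40). The comparison of TGF-β+2APB with DMSO lost its call without either DMSO library (0.44 and 0.49) and without TGF-β+2APB replicate 1 (0.36).

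The mouse P-glycoprotein genes Abcb1a and Abcb1b, neighbours on chromosome 5 whose products pump many hydrophobic drugs, responded at different steps. Abcb1a had 2888 and 2790 counts in the DMSO libraries, 1822 and 1890 in the TGF-β libraries, and 2422 and 2174 in the TGF-β+2APB libraries. Abcb1b had 250 and 276, then 246 and 244, then 48 and 64. Abcb1a was lowest with TGF-β and Abcb1b was low with TGF-β+2APB only. Abcb1a fell by 0.61 with TGF-β (SE 0.09, FDR 0.0039) and had a change of 0.28 with 2APB (SE 0.09, FDR 0.0926, between 0.0448 and 0.213 over the alternatives), not called by edgeR and called by DESeq2. Abcb1b did not reach a call with TGF-β (-0.11, FDR 0.722) and fell by 2.15 with 2APB (SE 0.23, FDR 0.00556). Abcb1a shares 22.5% of its 50-base words with Abcb1b, and Abcb1b 12.8% with Abcb1a, so reads from the shared stretches may have been split or dropped. The difference between the changes of this pair was not tested.

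Abcc3, a basolateral pump for glucuronides and bile acids, had 15568 and 14386 counts in the DMSO libraries, 2848 and 1984 in the TGF-β libraries, and 776 and 1118 in the TGF-β+2APB libraries. Abcc4, which exports cyclic nucleotides and prostaglandins, had 14246 and 13032, then 6814 and 5088, then 2424 and 3330. In both genes the 3 groups descended without overlap. Abcc3 fell by 2.64 with TGF-β (SE 0.22, FDR 0.000521) and by 1.37 with 2APB (SE 0.21, FDR 0.0135). The changes of Abcc4 were -1.20 (SE 0.18, FDR 0.00394) and -1.07 (SE 0.18, FDR 0.0166, between 1.13e-06 and 0.0508 over the alternatives), and the latter call was lost without DMSO replicate 1 or DMSO replicate 2 (-1.07 each) and without TGF-β+2APB replicate 1 (-0.89).

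Abcc2, the apical pump for bilirubin glucuronides in liver, fell at the TGF-β step. It had 1084 and 998 counts in the DMSO libraries, 66 and 22 in the TGF-β libraries, and 70 and 58 in the TGF-β+2APB libraries. It fell by 4.58 with TGF-β (SE 0.46, FDR 0.00101) and had no call with 2APB (0.53, SE 0.44, FDR 0.453). Without TGF-β replicate 1 the former change was -5.51. The TGF-β and TGF-β+2APB libraries overlapped.

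Abcc10, a pump for taxanes and other large drugs, had 2072 and 1940 counts in the DMSO libraries, 1058 and 1054 in the TGF-β libraries, and 450 and 580 in the TGF-β+2APB libraries, with changes of -0.93 (SE 0.13, FDR 0.0034) and -1.06 (SE 0.14, FDR 0.00806). Abcc5, a pump for cyclic nucleotides, had 20558 and 19986, then 16258 and 16130, then 12706 and 13930. Its changes were small, -0.33 with TGF-β (SE 0.08, FDR 0.0188) and -0.31 with 2APB (SE 0.08, FDR 0.0458, between 0.00255 and 0.147 over the alternatives). The fall of Abcc5 with 2APB was not called without DMSO replicate 1 or DMSO replicate 2 (-0.31 each), TGF-β+2APB replicate 1 (-0.27) or TGF-β+2APB replicate 2 (-0.37), and its fall with TGF-β was not called without either DMSO library (-0.34 and -0.31) or either TGF-β+2APB library (-0.30 each).

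The canalicular lipid pumps of the liver were near the bottom of the table. Abcb4, which flips phosphatidylcholine, had 46 and 34 counts in the DMSO libraries, 12 and 12 in the TGF-β libraries, and 2 and 2 in the TGF-β+2APB libraries, under the minimum. Abcb11, the bile salt export pump, had a mean of 1.3 counts. A list of 11 carriers of bile acids and organic anions outside the family had 3 genes with enough counts, of which 2 were called lower with TGF-β and 2 in TGF-β+2APB against DMSO. With 2APB 0 of the 3 were called, 0 at an unadjusted p under 0.05, and 1 by DESeq2 without its prior. Of all genes tested, 41.5%, 52.8% and 17.5% were called in these comparisons, in that order.

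**Figure D4:**
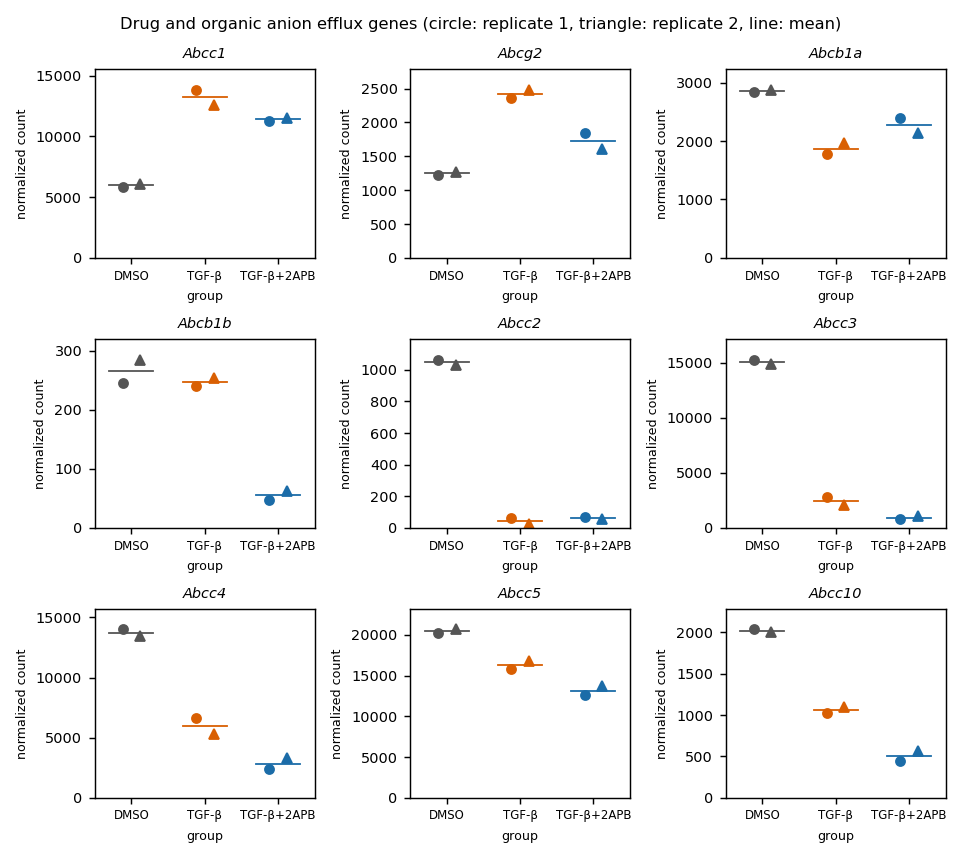
Normalized counts (linear axes from 0) of the 9 drug and organic anion pumps in each library, with circles for replicate 1, triangles for replicate 2 and a line at the mean of each group. Abcc1 and Abcg2 are higher with TGF-β, Abcb1b is low with TGF-β+2APB only, and Abcc3, Abcc4 and Abcc10 step down at each treatment.

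Of the remaining C-subfamily genes, Abcc6 and Abcc8, both of which passed through the DMSO libraries alone, were called lower with TGF-β. Of all genes tested, 41.5% were called with TGF-β. Abcc6, a basolateral protein of liver and kidney whose loss causes ectopic mineralization, had 406 and 336 counts in the DMSO libraries, 8 and 14 in the TGF-β libraries, and 12 and 8 in the TGF-β+2APB libraries. Its change was -5.05 with TGF-β (SE 0.40, FDR 0.000418) and -5.22 between TGF-β+2APB and DMSO (SE 0.40, FDR 0.000234). Abcc8, the sulfonylurea receptor of beta cell potassium channels, had 60 and 72 counts, then 8 and 2, then 8 and 0. Its fall with TGF-β (FDR 0.0374, between 0.00488 and 0.06 over the alternatives) is given no fold because the TGF-β mean lies under the floor of 6 counts. The call was lost without TGF-β replicate 1, which leaves a library under the floor, or TGF-β replicate 2 (-3.08 on the log2 scale). Abcc9, the related receptor of muscle, had 34 and 40, 24 and 48, and 34 and 24 counts, with overlapping groups and no call. With 2APB 0 of the 3 genes were called, where 17.5% of all genes were. At an unadjusted p under 0.05 there were 0, and by DESeq2 0.

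The intracellular B-subfamily genes included both rises and falls with TGF-β. Of 5 genes, 3 were called with TGF-β, 1 higher and 2 lower, where 41.5% of all genes were called, and 1 of the lower genes, Abcb9, passed through the DMSO libraries alone. Abcb6, a porphyrin carrier, had 2112 and 1934 counts in the DMSO libraries, 1168 and 920 in the TGF-β libraries, and 1086 and 1014 in the TGF-β+2APB libraries, a change of -0.96 with TGF-β (SE 0.11, FDR 0.00162), but 50% of its 50-base words are also part of an overlapping gene model on the same strand. In both groups with TGF-β the Abcb6 libraries lay under the DMSO libraries. Abcb9, a lysosomal peptide transporter, had 76 and 56, 18 and 8, and 12 and 8 counts, a change of -2.34 with TGF-β (SE 0.48, FDR 0.0119) that was not called without DMSO replicate 1 (-2.15) or DMSO replicate 2 (-2.52) and was -2.97 without TGF-β replicate 1. Abcb10, a mitochondrial protein of heme metabolism, had 3292 and 3094, 4306 and 3552, and 3906 and 3634 counts, a rise of 0.29 with TGF-β (SE 0.09, FDR 0.0438, between 0.0182 and 0.0826 over the alternatives). The call of Abcb10 was lost when any library but TGF-β replicate 2 was left out, with values between 0.20 and 0.32. The mitochondrial transporter Abcb8, with log2 fold changes of 0.22 with TGF-β and -0.14 with 2APB, was not called. With 2APB 0 of the 5 genes were called, where 17.5% of all genes were. At an unadjusted p under 0.05 there were 0, and by DESeq2 0.

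Among the D-subfamily genes, Abcd3 fell with TGF-β. Abcd3, which imports branched fatty acids and bile acid precursors into peroxisomes, had 13482 and 13114 counts in the DMSO libraries, 8042 and 7882 in the TGF-β libraries, and 7020 and 7154 in the TGF-β+2APB libraries. No Abcd3 library with TGF-β reached the DMSO libraries, and the change for TGF-β was -0.74 (SE 0.07, FDR 0.000742). Abcd2, a peroxisomal fatty acid transporter, had 64 and 54, 84 and 82, and 70 and 146 counts, with 2.08-fold between the TGF-β+2APB replicates and no call in any comparison. Abcd4, which takes part in the release of vitamin B12 from lysosomes, had 1154 to 1370 counts in the 6 libraries and no call. With 2APB 0 of the 4 genes of the subfamily were called by edgeR, where 17.5% of all genes were. At an unadjusted p under 0.05 there was 1, and by DESeq2 1, Abcd3 in both cases.

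Among the ribosome-acting genes, Abcf2 was called higher and Abcf3 lower with TGF-β, where 41.5% of all genes were called. Abcf2 had 6604 and 6370 counts in the DMSO libraries, 11958 and 9540 in the TGF-β libraries, and 12326 and 12696 in the TGF-β+2APB libraries. It rose by a log2 fold change of 0.72 with TGF-β (SE 0.10, FDR 0.00265) and of 0.92 between TGF-β+2APB and DMSO (SE 0.10, FDR 0.000711). All 4 libraries with TGF-β lay above the DMSO libraries for Abcf2. Abcf1, a translation initiation factor, had 13812 and 12718, 16878 and 14198, and 16798 and 16894 counts, with 0.22 for TGF-β (FDR 0.0696, between 0.0186 and 0.141 over the alternatives), not called by edgeR but called by DESeq2 with and without its prior and by edgeR without TGF-β replicate 2 (0.30), and a rise of 0.32 in TGF-β+2APB against DMSO (SE 0.08, FDR 0.018) whose call was lost without any of the DMSO or TGF-β+2APB libraries in turn (values between 0.29 and 0.34). Abce1, which splits ribosomes after termination, had 12942 and 13082, 13984 and 20096, and 20562 and 18862 counts. The TGF-β replicates of Abce1 lay apart, and its change of 0.39 (SE 0.20, FDR 0.166) was not called. In TGF-β+2APB against DMSO its change was 0.57 (SE 0.20, edgeR FDR 0.0551, between 0.00115 and 0.0947 over the alternatives), and the groups did not overlap. This change was not called by edgeR but was called by DESeq2 with and without its prior. Abcf3, a further member of this subfamily, had 5358 and 5104, 4592 and 3692, and 4460 and 4510 counts, a change of -0.34 with TGF-β (FDR 0.029, between 0.00342 and 0.0949 over the alternatives) that was not called without any of the DMSO (-0.34 each) or TGF-β+2APB libraries (-0.32 each). With 2APB 0 of the 4 genes were called, where 17.5% of all genes were. At an unadjusted p under 0.05 there were 0, and by DESeq2 0. Of 4 measured release and recycling partners of Abce1, 0 were called with TGF-β or with 2APB, 0 at an unadjusted p under 0.05 and 0 by DESeq2, and 2 were called higher in TGF-β+2APB than in DMSO. Of all genes tested, 41.5%, 17.5% and 52.8% were called in these comparisons, in that order.

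Levels can be compared between genes only per length, here as an RPKM value. It is the normalized count scaled by the merged length of all annotated exons and by the mean normalized library total. In DMSO the highest levels were those of Abcf1 (39.6, replicates 39 and 40.3), Abca3 (35, replicates 34.5 and 35.4), Abcc3 (34.6, replicates 34.1 and 35.1) and Abcf2 (33.3, replicates 33 and 33.5), and Abca3 and Abcc3 did not differ beyond their replicates. With TGF-β the order began with Abcf2 (54.9), Abcf1 (46.2) and Abce1 (37.6), where the replicates of Abce1, 29.7 and 45.4, overlapped those of Abcf1. With TGF-β+2APB the same 3 genes came first without overlap, at 62.9, 49.4 and 42.4, and the next, Abca2, was at 17.9. Abcc3, the third in DMSO, stood at 5.55 with TGF-β and 2.15 with TGF-β+2APB, and Abcc4 moved from 28.1 to 12.2 and 5.82. The lowest level in DMSO was that of Abcg1, 0.0429 with replicates of 0.0259 and 0.0599.

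**Figure D5:**
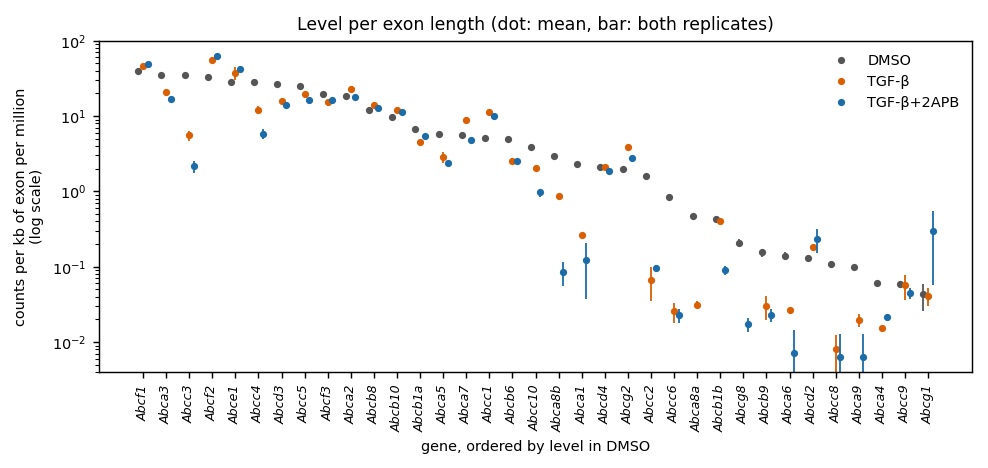
Level of each of 35 genes as RPKM, the normalized count scaled by merged exon length and mean normalized library total (logarithmic axis). Genes are ordered by the DMSO mean, with dots for group means and bars spanning both replicates. Abcf2, Abcf1 and Abce1 are the top 3 in both groups that received TGF-β while Abcc3, at 34.6 in DMSO, falls to 2.15 with TGF-β+2APB, and Abcg8 with TGF-β and Abca8a with TGF-β+2APB have no dot because both replicates were at 0.

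Genes outside the family that are linked to it in function were counted as lists. Of 10 tested nuclear receptors and factors known to act on ABC genes, 7 were called lower and 1 higher with TGF-β, 3 lower with 2APB, and 7 lower and 1 higher in TGF-β+2APB against DMSO, with medians of -1.13, -0.54 and -2.08 on the log2 scale. Of 9 liver X receptor targets, which include 1 gene of the previous list, 5 were lower and 2 higher with TGF-β, 3 lower with 2APB, and 6 lower and 2 higher against DMSO, with medians of -1.20, -0.47 and -1.62. Of 7 tested NRF2 targets, 2 were lower and 1 higher with TGF-β, 1 lower and 3 higher with 2APB, and 1 lower and 4 higher against DMSO, with medians of -0.24, 0.71 and 0.48. Of 3 tested ABC proteins and channel partners with other symbols, 3 were lower with TGF-β and 2 against DMSO, while with 2APB 0 were called, 0 at an unadjusted p under 0.05 and 0 by DESeq2. No test connects these lists to the ABC genes, and their counts are to be read beside the shares of all genes called.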

How the data were processed

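The 6 libraries are 2 replicates each of NMuMG cells given DMSO, TGF-β or TGF-β+2APB, grouped by their titles and treatment labels. The authors deposited raw counts of reads per gene, not scaled between libraries, made with FastQC 0.11.2 and TopHat2 2.0.13 against mm10 according to the submitters' processing notes, and with featureCounts according to the study's methods, which name hg19 although the symbols are mouse symbols. The gene annotation, the strand setting and the handling of reads with several alignments are not given in the sources used here. Of 18512 entries, 25 had names turned into dates by a spreadsheet. Every value was even and the smallest above 0 was 2, so 6 counts per library (3 such steps) served as the floor for a count of 0. That floor takes in counting error alone, because reads are no separate molecules.

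The fits were run with edgeR 4.0.16 and limma 3.58.1 under R 4.3.3. Genes averaging 20 or more TMM-normalized counts (13353) were fitted over the 3 groups in 1 quasi-likelihood model, and FDR values (Benjamini-Hochberg over all genes) of 0.05 or less were called. All 37 ABC genes passed this filter. The SE of a log2 fold change was taken as its size over the square root of F. DESeq2 1.42.0 was an alternative, as were RLE and library size scaling, other filters and thresholds, halved counts, fits of only 4 libraries, each library left out in turn and the replicate number as a block. For the study's own tests the submitters' processing notes name DESeq2 1.6.1 and the study's methods a later release of it. The scripts were tested on simulated data first. Positions, exon lengths and shared 50-base words came from GENCODE vM21 (GRCm38), matched by symbol, and promoters from RefSeq (GRCm38.p6). Tables and plots were made in Python 3.11.15 (pandas 2.3.3, matplotlib 3.10.9).

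Genes described in full were the 5 largest called rises and falls of each comparison, a set of named transporters, and genes whose replicates lay at least 4-fold apart, and the other members were placed by role. Single values of 2 members are not reported here, though both stay in the fits and counts. Genes outside the family were counted only, except the cell type markers, of which 6 of 7 epithelial, 8 of 8 hepatocyte and 4 of 5 macrophage markers were in the table, as were all 4 endothelial markers, with sums of 9.83 to 49.3 normalized counts, and 6 mesenchymal markers, of which the 5 tested were higher with TGF-β. The ABC genes and all lists were chosen with earlier results of these data known. Same-numbered replicates were checked for pairing by the correlation of their deviations from the group means over 13353 genes. It was 0.148 for DMSO with TGF-β, -0.458 for DMSO with TGF-β+2APB and -0.255 for TGF-β with TGF-β+2APB. With 2 replicates the check rests on a single difference per group, so it cannot decide whether the numbers pair the samples.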

Additional observations from a re-analysis of the deposited data

How the results depend on the processing

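The number of ABC genes called with TGF-β against DMSO, 26, was between 21 and 28 under the other scalings, the other tests, the other filters, halved counts and fits of only the 4 libraries compared. It was 13 when changes had to reach 1 in size on the log2 scale, and between 16 and 28 with a library left out. The 10 calls of TGF-β+2APB against TGF-β became 5 in a fit of only the 4 libraries compared, where 29 of the genes were tested, 5 at an FDR of 0.01, 13 and 14 by DESeq2 with and without its prior, and between 6 and 17 with a library left out. The 26 calls of TGF-β+2APB against DMSO ranged from 18 to 31 with a library left out. When a DMSO library was left out, 33 of the 37 genes passed the filter. The causes of these changes were not tested. With the replicate number as a block, the 3 counts were 23, 7 and 25. The block ended 7 calls, those of Abca2, Abcc8 and Abcf3 for TGF-β, of Abcc5, Abcg2 and Abcg8 for 2APB and of Abcb1a for TGF-β+2APB against DMSO, and gained 0. With the TGF-β+2APB numbers exchanged in the block, chosen after seeing the data, the counts were 25, 9 and 28. Of 77 results of single genes followed through the alternatives, 62 were called in the main fit. Of these 77, 17 lost their call and 14 gained a call in at least 1 setting, and 0 changed sign. Only results with a large change or a low p-value in the main fit were followed, so these counts do not cover the rest. Some of the rest changed sign when a library was left out. With 2APB the log2 fold change ran from -0.10 to 0.52 for Abce1 and from -0.27 to 0.76 for Abcd2. For Abcg1 with TGF-β against DMSO it ran from -0.54 to 0.66. With 2 libraries per group, genes near the floor of 6 counts per library, such as Abcg8 after TGF-β, could not be measured further down.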
